A study of Mus musculus with 18 samples.

Results

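Nppc, Npr1, Npr2, Npr3, Pde3a and Pde5a, genes of the natriuretic peptide and cyclic GMP (cGMP) pathway, were followed across mouse ovarian follicles cultured with anti-Müllerian hormone (AMH). They were chosen by name with earlier results of these arrays known, and every probe set annotated to 1 of the 6 symbols alone was taken, which gave 12 of the 45037 probe sets that are not controls. A probe set is a group of short probes summarized as 1 signal in arbitrary units, so differences were taken between arrays within a probe set. Levels of different probe sets entered the filter, the choice of the leading probe set of a gene, and the marker sums and ranges. A filter kept the brighter ones, whose average log2(signal + 16) exceeded the 50th percentile, and the 22518 tested hold 7 of the 12 member probe sets. The 7 are 1 each of Nppc, Npr1, Npr2 and Pde3a and all 3 of Pde5a. The choice of genes used the differences between doses within a pool and between times in vehicle, so these are described without a test. The differences between times in the AMH cultures were tested. Each of them combines differences of both kinds, so its p-value is not independent of the choice of genes.

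The follicles, preantral to small antral, were dissected from ovaries of female mice (C57BL/6Ntac, written C57BL/6Tac in the series design) aged 6 to 8 weeks. Follicles of 7 mice made a pool, and each pool was divided into drop cultures with 0 (vehicle), 50 or 200 ng/mL of recombinant AMH. Every medium, vehicle included, held 80 IU/L FSH and 10 IU/L LH. Cultures ended at 12 or 24 h, with 3 pools at each time and 1 array per culture, so that each of the 6 groups had 3 arrays. The 12 h and 24 h cultures came from different pools. A culture held whole follicles, with oocyte, granulosa and any attached theca or stromal cells, so fewer cells of a type and less RNA per cell cannot be told apart.

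C-type natriuretic peptide, encoded by Nppc and made by mural granulosa cells, binds the receptor NPR2 on granulosa and cumulus cells, whose guanylyl cyclase domain makes cGMP. The cGMP passes through gap junctions into the oocyte and inhibits phosphodiesterase 3A (Pde3a), which keeps cyclic AMP high and holds the oocyte in meiotic arrest. NPR1 is the guanylyl cyclase receptor of atrial and B-type natriuretic peptides, NPR3 clears the peptides, and phosphodiesterase 5A (Pde5a) breaks down cGMP. LH ends this arrest in preovulatory follicles by lowering cGMP, and FSH and estradiol are known to raise Nppc and Npr2.

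The bases just before the transcription start of Nppc and of Pde5a are shown because these genes start the pathway and end its signal, and because their 24 h to 12 h differences in the AMH cultures are described below. The 250 bases come from RefSeq on build GRCm38.p6, written 5′ to 3′ on the gene's strand, for Nppc at chr1:86670574-86670823 (minus strand) and for Pde5a at chr3:122728908-122729157 (plus strand). Capitals mark a GC box (GGGCGG) or a TATA box (TATAAA).
Nppc: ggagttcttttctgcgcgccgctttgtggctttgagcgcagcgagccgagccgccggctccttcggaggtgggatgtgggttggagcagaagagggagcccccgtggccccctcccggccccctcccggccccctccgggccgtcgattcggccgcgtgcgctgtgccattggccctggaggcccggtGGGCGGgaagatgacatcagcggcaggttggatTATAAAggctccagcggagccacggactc
Pde5a: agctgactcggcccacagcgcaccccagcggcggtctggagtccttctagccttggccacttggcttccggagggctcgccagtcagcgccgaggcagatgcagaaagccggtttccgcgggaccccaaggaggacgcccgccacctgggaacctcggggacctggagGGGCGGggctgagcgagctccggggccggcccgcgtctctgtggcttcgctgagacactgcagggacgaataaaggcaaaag
The Nppc window holds a TATA box 29 to 24 bases and a GC box 62 to 57 bases before the start, and the Pde5a window holds a GC box at 82 to 77 bases. Over 32851 windows of this length, 12.4% hold TATAAA and 32.7% hold GGGCGG on either strand. The cAMP response element TGACGTCA (in 1.55% of the windows), its core TGACG (17.8%) and the GC-rich SMAD1/5 motif GGCGCC (9.59%) were also searched on both strands, and their letters are not in these 2 windows. Among the other members, the Npr2 window holds GGCGCC 222 to 217 bases before the start, and the Npr3 window holds TGACG at 50 to 46 bases.

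Array quality touched several members. Replicate 3 of AMH 50 ng/mL at 12 h correlated with the other arrays at r between 0.604 and 0.624 over the tested probe sets, against 0.904 to 0.992 among the remaining 17, and it is given apart. The AMH 200 ng/mL culture of the same pool stayed in the fits, although its summed granulosa marker signal (9 of 10 listed genes tested) was the lowest of the 17 arrays at 1498. On this array the median signal was 18.0, against 23.1 to 36.5 on the others, the summed poly-A control signal was 4846, against 376 to 1428, and the summed surface epithelium signal (8 of 8 genes) was 7783, against 744 to 4489. Several member values are also given without this array or its pool, and the part of these differences in the results was not tested. Summed granulosa signal lay between 1498 and 5695 on the 8 arrays of 12 h and between 7043 and 9126 on the 9 arrays of 24 h, without overlap. Oocyte marker sums (10 of 12 genes) ranged from 539 to 9550 and differed mainly between pools. Genes of 1 list differed in level. Foxl2, a defining granulosa gene, read 209 to 1150, while the granulosa genes Fshr (1.48 to 213) and Amh (1.54 to 221) were near the bottom of the scale on their lowest arrays. The oocyte genes Zp3 (8.22 to 1790) and Bmp15 (0.442 to 739) were near the bottom as well, while Ooep (260 to 2060) and Oosp1 (76 to 1060) were not.

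**Figure D1:**
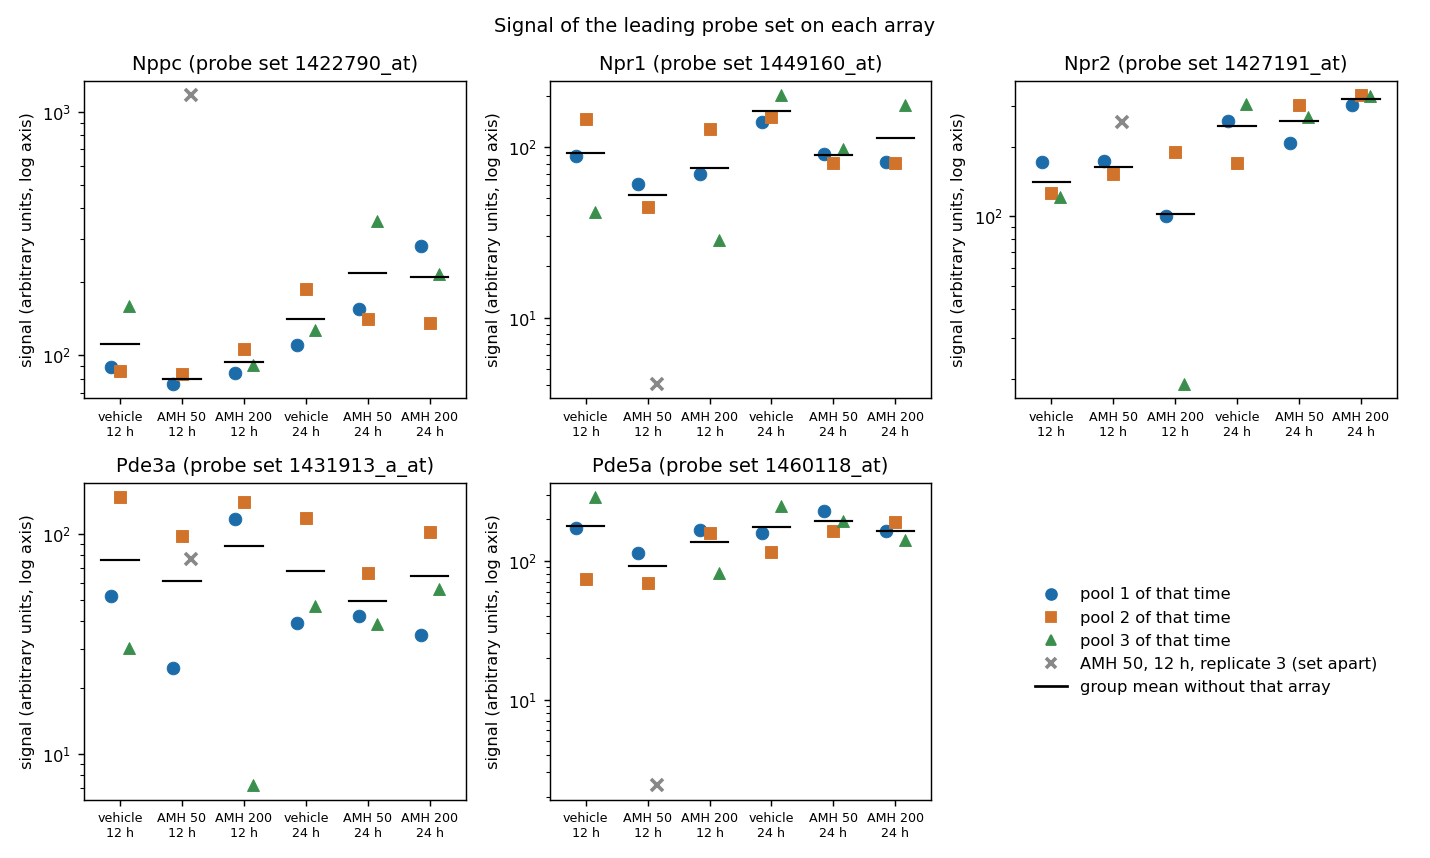
Signal of the leading probe set of 5 genes on each array (vertical log axis, arbitrary units) by AMH dose and time; marker shape and colour give the pool, bars are group means over the 17 arrays, and the grey cross is the array set apart. Nppc and Npr2 lie higher at 24 h than at 12 h in both AMH doses, and Pde3a follows the pool more than the dose.

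Nppc, the ligand gene, was described first across doses. At 12 h its signal was 89.2, 85.6 and 159 in the 3 vehicle pools, 76.3 and 83.3 with AMH 50 ng/mL, and 84.3, 105 and 91.4 with AMH 200 ng/mL. At 24 h it was 110, 187 and 127 in vehicle, 154, 141 and 357 with 50 ng/mL, and 281, 135 and 214 with 200 ng/mL. The AMH and vehicle values overlapped at 24 h, with Nppc above its own vehicle in pools 1 and 3 and below it in pool 2 at both doses. Both doses share the vehicle arrays. The difference from vehicle at 24 h was 0.48 (log2, SE 0.33, n = 3 pools) at 50 ng/mL and 0.50 (SE 0.33) at 200 ng/mL, and at 12 h it was -0.24 (SE 0.38, n = 2 pools) and -0.17 (SE 0.33, n = 3). At 50 ng/mL and 12 h the fit also draws on the other cultures of pool 3, and the mean over the 2 pools themselves was -0.11. Without pool 3 the 12 h difference at 200 ng/mL was 0.09.

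Npr1, the receptor of atrial and B-type natriuretic peptides, was lower with AMH than with vehicle of the same pool in every pair of the 17 arrays. At 24 h its signal was 140, 151 and 201 in vehicle, 91.2, 81.3 and 98.2 with AMH 50 ng/mL, and 82.0, 80.9 and 177 with AMH 200 ng/mL. The 50 ng/mL values all lay below the lowest vehicle value, while pool 3 at 200 ng/mL lay within the vehicle range. The difference from vehicle was -0.75 (log2, SE 0.24, n = 3 pools) at 50 ng/mL and -0.54 (SE 0.24) at 200 ng/mL. At 12 h the signal was 88.5, 146 and 41.7 in vehicle, 61.0 and 44.3 with 50 ng/mL, and 69.8, 128 and 28.4 with 200 ng/mL. Here the pools differed more than the doses, and the differences were -0.96 (SE 0.28, n = 2) and -0.28 (SE 0.24, n = 3). Without pool 2 the 12 h difference at 50 ng/mL was -0.46, and without pool 1 it was -1.48. The share of all tested probe sets that were lower in every pool was 28.6% at 50 ng/mL and 14.4% at 200 ng/mL after 12 h, and 12.2% and 11.9% after 24 h. Since the genes were chosen on this contrast and both doses share the vehicle arrays, the counts over pools support nothing further.

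Npr2, the receptor that makes cGMP in answer to C-type natriuretic peptide, had 24 h signals of 258, 170 and 304 in vehicle, 207, 301 and 268 with AMH 50 ng/mL, and 304, 332 and 331 with AMH 200 ng/mL. With 200 ng/mL it was above vehicle in each of the 3 pools (15.7% of tested probe sets were higher in every pool), although pool 1 differed from the highest vehicle array by less than 1 unit. The difference was 0.41 (log2, SE 0.35) at 200 ng/mL and 0.10 (SE 0.35) at 50 ng/mL. At 12 h it was 172, 127 and 122 in vehicle, 173 and 153 with 50 ng/mL, and 100, 189 and 19.0 with 200 ng/mL. The last of these is the array with the lowest granulosa sum. The 12 h difference at 200 ng/mL was -0.72 (SE 0.35, n = 3 pools) and -0.08 without that pool. At 50 ng/mL the fitted 12 h difference was -0.19 (SE 0.41), while the mean over the 2 pools was 0.12. The sign differed because the fit also uses pool 3.

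Npr3, the clearance receptor, was near the bottom of the scale. Its 3 probe sets, none of which passed the filter, had signals between 0.399 and 34.7 on the 17 arrays, so no difference is given. The highest value was that of vehicle pool 3 at 12 h.

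The phosphodiesterase genes were set out last. Pde3a, which degrades cyclic AMP in the oocyte and is inhibited by cGMP, had signals of 52.0, 147 and 30.4 in vehicle at 12 h, 24.6 and 98.0 with AMH 50 ng/mL, and 117, 140 and 7.18 with AMH 200 ng/mL. At 24 h it was 39.3, 118 and 47.1 in vehicle, 42.2, 66.7 and 39.1 with 50 ng/mL, and 34.8, 102 and 56.1 with 200 ng/mL. Pool 2 was the highest in every group at both times, and the doses overlapped. The differences from vehicle were -0.87 (log2, SE 0.37, n = 2 pools) and -0.03 (SE 0.31, n = 3) at 12 h, and -0.27 (SE 0.31) and -0.04 (SE 0.31) at 24 h, for 50 and 200 ng/mL. The mean over the 2 pools at 50 ng/mL and 12 h was -0.63, and without pool 3 the 12 h difference at 200 ng/mL was 0.45. A second Pde3a probe set at the 48.2 percentile, just outside the filter, followed the tested one over the 17 arrays (r = 0.858), and the remaining one read at most 3.65. The Pde5a probe set at the 55.1 percentile was the member just inside it.

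Pde5a, the cGMP-degrading enzyme, had signals in its leading probe set of 172, 74.0 and 287 in vehicle at 12 h, 115 and 69.4 with AMH 50 ng/mL, and 167, 158 and 82.2 with AMH 200 ng/mL. At 24 h it was 158, 116 and 249 in vehicle, 228, 164 and 193 with 50 ng/mL, and 163, 190 and 140 with 200 ng/mL. The doses overlapped at both times. Differences from vehicle were -0.65 (log2, SE 0.44, n = 2 pools) and -0.24 (SE 0.37, n = 3) at 12 h and 0.20 (SE 0.37) and -0.02 (SE 0.37) at 24 h, for 50 and 200 ng/mL. The mean over the 2 pools at 50 ng/mL and 12 h was -0.30, and without pool 3 the 12 h difference at 200 ng/mL was 0.46. The 3 probe sets moved together over the 17 arrays, with r between 0.836 and 0.953.

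**Figure D2:**
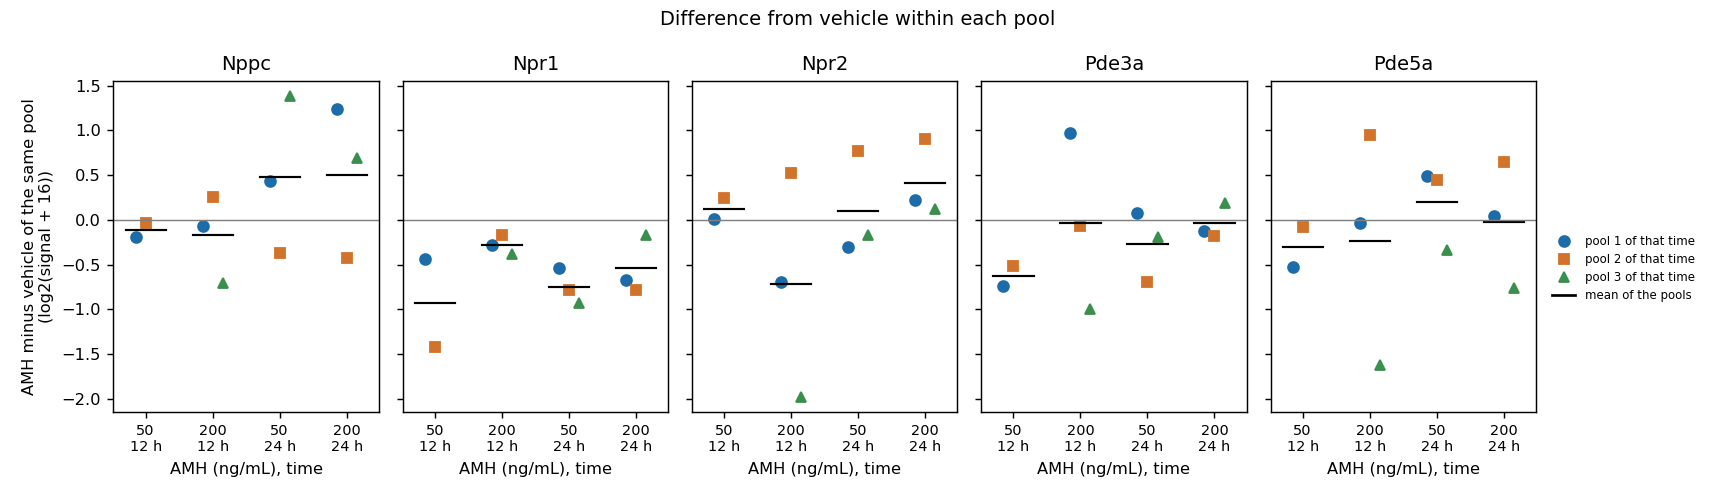
Difference between AMH and vehicle of the same pool (log2(signal + 16)) for 5 genes, by dose and time; points are pools and bars their mean, without the array set apart. All Npr1 points lie below 0, and Npr2 at 200 ng/mL and 12 h spans from 0.53 to -1.98.

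Over all tested probe sets, limma called 0 (0%) with adjusted p under 0.05 in each of the 4 dose comparisons, with 1282, 2563, 605 and 379 at unadjusted p under 0.05 (50 then 200 ng/mL at 12 h, then at 24 h). Of the genes listed around the pathway, 48 of 90 were tested and 0 were called in any dose comparison.

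Time was compared within each dose. In vehicle, which the choice of genes used, the 24 h minus 12 h differences were 0.32 for Nppc (log2, SE 0.28, n = 3 and 3 arrays), 0.85 for Npr1 (SE 0.36), 0.71 for Npr2 (SE 0.25), -0.05 for Pde3a (SE 0.49) and 0.08 for Pde5a (SE 0.44). The 12 h and 24 h values of all 7 tested member probe sets overlapped in vehicle. Of all tested probe sets 291 (1.29%) were called in this comparison, or 642 with the replicate number as a block. Every 24 h array was above every 12 h array for 13.6% of all tested probe sets and for 0 of the 7.

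With AMH 200 ng/mL, Nppc and Npr2 were higher at 24 h on every array, and neither passed the limma threshold. Nppc had signals of 84.3, 105 and 91.4 at 12 h and 281, 135 and 214 at 24 h, so the groups did not overlap. The difference was 0.99 (log2, SE 0.30, 95% interval 0.30 to 1.69), a 1.99-fold ratio, with an adjusted p of 0.100 by limma. Without the 12 h array of pool 3 it was 0.98 with an adjusted p of 0.0559. Npr2 had 100, 189 and 19.0 at 12 h and 304, 332 and 331 at 24 h, again without overlap. The 24 h arrays lay close together, and the spread came from 12 h. The Npr2 difference was 1.84 (SE 0.56, interval 0.56 to 3.13), with an adjusted p of 0.100 by limma. Without the 12 h array of pool 3, the one with the low granulosa sum, it was 1.13 with an adjusted p of 0.0223. Without the 12 h array of pool 2 it was 2.40 with an adjusted p of 0.0367, and over all settings run the adjusted p lay between 0.0107 and 0.295. Granulosa marker sums moved with both genes, from 1498 to 5695 at 12 h to 8478 to 9034 at 24 h at this dose, and their part in the result was not tested.

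Npr1 differed by 0.58 (log2, SE 0.48, limma adjusted p = 0.470) at 200 ng/mL, Pde3a by -0.05 (SE 0.70, adjusted p = 0.972) and the leading Pde5a probe set by 0.30 (SE 0.31, adjusted p = 0.577). Without the 12 h array of pool 3, Npr1 differed by 0.14 and Pde5a by 0.0076. These 3 genes overlapped between times in their leading probe sets. The other 2 Pde5a probe sets differed by 0.90 (adjusted p = 0.216) and 0.59 (adjusted p = 0.250). Of the 7 member probe sets 0 were called, against 884 (3.93%) of all tested, and 3 of the 7 had every 24 h array above every 12 h array, against 21.2% of all tested.

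With AMH 50 ng/mL the time comparison rests on 2 arrays at 12 h and 3 at 24 h. It combines the vehicle time difference with dose differences, which were used to choose the genes. The p-values of members are therefore not independent of that choice. Pde5a rose in its leading probe set, from 115 and 69.4 at 12 h to 228, 164 and 193 at 24 h, a difference of 0.99 (log2, SE 0.25, limma adjusted p = 0.0412). The other 2 probe sets, annotated to the same gene, differed by 1.14 (SE 0.41, adjusted p = 0.129) and 1.03 (SE 0.31, adjusted p = 0.0750) and did not overlap between times either. The call was lost without the 12 h array of pool 2 (0.68, adjusted p = 0.199), without the 24 h array of pool 1 (adjusted p = 0.116) or pool 3 (adjusted p = 0.110), with quantile normalization (adjusted p = 0.0587), with no filter (adjusted p = 0.0917) and with the pool as a random block (adjusted p = 0.308). Over all settings run, the array set apart included, the adjusted p lay between 0.0184 and 0.676. Several marker lists differed between the times at this dose. Of the stroma and smooth muscle markers, all 8 tested of 10 listed were higher at 24 h and 4 rose, namely Pdgfra, Dcn, Lum and Col1a1, and their summed signal went from 1714 to 2493 at 12 h to 3234 to 6456 at 24 h. With the pool as a random block 0 of the 8 rose (limma adjusted p = 0.0798 for Pdgfra, 0.133 for Dcn, 0.136 for Lum and 0.174 for Col1a1, with an estimated correlation). Of the theca and interstitial markers, all 6 tested of 8 listed were higher and 3 rose (0 with the random block), with sums of 5113 to 5601 at 12 h and 7922 to 12744 at 24 h. Of the granulosa markers, 7 of the 9 tested were higher at 24 h, 3 rose and 1 fell, with sums of 4991 to 5288 at 12 h and 7043 to 9126 at 24 h. With the random block Fshr was called (limma adjusted p = 0.0432), while Foxl2 (0.0678) and Hsd17b1 (0.233) were not. Over all 11213 genes tested, 48.2% were higher at 24 h at this dose, 604 rose and 369 fell. Among the granulosa markers Amh differed by -1.95 with median centring (limma adjusted p = 0.0191) and by -1.54 with the random block (adjusted p = 0.308). With quantile normalization its adjusted p was 0.0508. Without the 24 h array of pool 1, 2 or 3 it was 0.0761, 0.0677 or 0.0723. Without the 12 h array of pool 1 or 2 the Amh difference was -2.80 or -1.01. Of the 8 endothelial markers 2 were higher at 24 h, with a median of -0.27, and their sums overlapped. The part of these cell types in the Pde5a difference was not tested.

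Nppc differed by 1.17 at 50 ng/mL (log2, SE 0.34, limma adjusted p = 0.0698), Npr1 by 0.64 (SE 0.24, adjusted p = 0.146) and Npr2 by 0.60 (SE 0.21, adjusted p = 0.111). None of these passed the threshold, although the 24 h arrays of all 3 genes lay above those of 12 h. Without the 24 h array of pool 2, Nppc had an adjusted p of 0.0380, and with the array set apart its difference was -0.04. Pde3a differed by -0.08 (SE 0.40, adjusted p = 0.931), with overlapping values. Of the 7 member probe sets 1 was called, against 1711 (7.6%, with 4.7% higher at 24 h) of all tested (0 with the array set apart), and 6 of the 7 had every 24 h array above the 12 h arrays, against 20.7% of all tested. All the Pde5a probe sets are among these 6, and they moved together (r between 0.836 and 0.953), so that gene is counted more than once. The 12 h cultures of all doses share pools, as do those of 24 h. The time comparisons with AMH are therefore not independent of the vehicle comparison or of the choice of genes. The difference between doses in the change over time was called for 0 probe sets (1618 at unadjusted p under 0.05, AMH 200 ng/mL against vehicle).

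**Figure D3:**
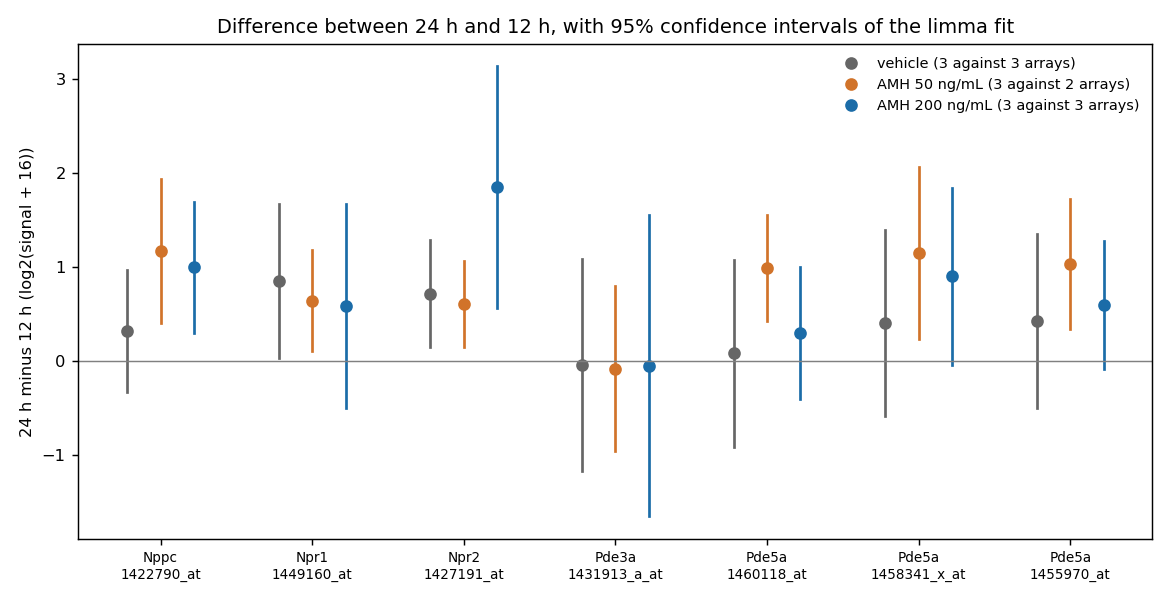
Difference between 24 h and 12 h (log2(signal + 16)) for the 7 tested member probe sets in vehicle, AMH 50 ng/mL and AMH 200 ng/mL, with limma 95% confidence intervals as bars. Pde3a lies near 0 at every dose, and the widest Npr2 interval, at AMH 200 ng/mL, runs from 0.56 to 3.13.

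The 3 groups of 24 h had higher means than the 3 groups of 12 h for Nppc, Npr1, Npr2 and all 3 Pde5a probe sets, but not for Pde3a. The share of all tested probe sets with such an order was not counted. Pde5a is counted more than once, and the genes were chosen on vehicle times and doses, so the order supports nothing further. The step at the boundary of the times was the widest for none of these probe sets. For Nppc it was 0.32, against 0.48 between 50 ng/mL and vehicle at 24 h. For Npr1 it was 0.10, against 0.54 between vehicle and 200 ng/mL at 24 h. For Npr2 it was 0.51, against 0.72 between vehicle and 200 ng/mL at 12 h. For the Pde5a probe sets, brightest first, it was 0.06, 0.31 and 0.27, against 0.47, 0.50 and 0.32 between groups of 12 h. For Nppc the means of log2(signal + 16) ran from 7.77 (AMH 200 ng/mL, 24 h) and 7.75 (50 ng/mL, 24 h) through 7.27 and 6.95 (vehicle, 24 h and 12 h) to 6.77 and 6.58 (200 and 50 ng/mL, 12 h), and the last step was the 1 that exceeded the larger SD of its 2 neighbours. For Npr1 they ran from 7.48 (vehicle, 24 h) to 6.09 (50 ng/mL, 12 h), and no step exceeded the larger SD. For Npr2 they ran from 8.40 (200 ng/mL, 24 h) to 6.56 (200 ng/mL, 12 h), and the first step, of 0.31, and the step from vehicle at 24 h to 50 ng/mL at 12 h, of 0.51, exceeded it. The Pde3a and leading Pde5a means ran from 6.32 to 6.01 and from 7.71 to 6.72, with no step beyond the SD.

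Pde3a varied with the oocyte markers across pools. Over the 6 pools, each the mean of its cultures on the 17 arrays, Pde3a (mean log2 value 5.04 to 7.16) correlated with the log2 summed oocyte signal at Pearson's r = 0.976 (exact two-sided permutation p = 0.00139, the smallest 6 pools can give, adjusted p = 0.00972 over 7 marker lists) and Spearman's rho = 1 (exact permutation p = 0.00278, adjusted p = 0.0194). Without the 2 pools farthest from the median oocyte sum, r was 0.917 over 4 pools. The other 6 lists (granulosa, theca and interstitial, endothelium, leukocyte, stroma and smooth muscle, surface epithelium) gave r between -0.611 and 0.525, with adjusted p of 0.489 or more by the same exact permutation test. Spearman's rho was -0.771 for both the theca and the stroma list (exact permutation adjusted p = 0.24 each) and lay between -0.257 and 0.2 for the rest. Each time holds 3 pools, too few for a value within a time. The highest pool of each time by oocyte sum, pool 2, was also its highest by Pde3a. Zp3 and the other listed oocyte genes were not used to choose Pde3a, but Pde3a and the lists were chosen with earlier results of these arrays known. The permutations also exchanged pools between the times. The p-value is therefore not that of a relation fixed in advance.

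**Figure D4:**
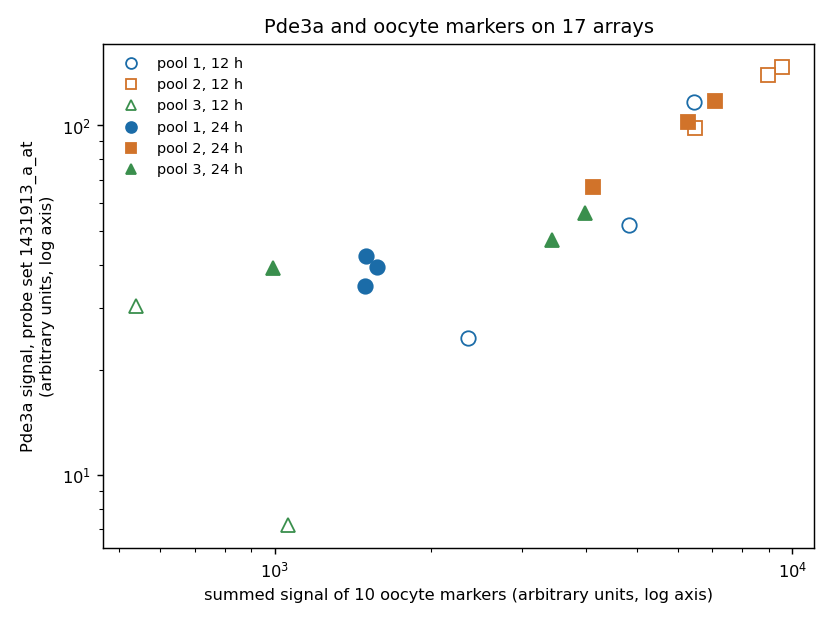
Pde3a signal (vertical log axis, arbitrary units) against the summed signal of 10 oocyte markers (horizontal log axis, arbitrary units) on 17 arrays; shape and colour give the pool, open points 12 h and filled points 24 h. Pool 2 lies at the upper right at both times, and the lowest Pde3a value, 7.18, is the AMH 200 ng/mL array of pool 3 at 12 h.

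The 3 genes whose leading probe sets followed each member most closely over the 17 arrays are a description, since cultures of a pool share follicles and all arrays share the times. They were Ybx2 (Pearson's r = 0.970), a germ cell RNA-binding protein, Gm11545 (0.966) and Arhgef16 (0.956) for Pde3a, and Tshz2 (0.916), the matrix gene Thbs2 (0.915) and Osr2 (0.905) for Pde5a. Npr2 was followed by Oip5os1 (0.979), Vps41 (0.974) and the DNA repair gene Neil1 (0.973). Npr1 was followed by Ranbp3l (0.860), Slc18a2 (0.852) and Car11 (0.845), and Nppc by Dock1, Grb14 and Enpp6 (0.861 each). Among the 5 members themselves r ran from -0.167 (Pde5a and Pde3a) to 0.625 (Npr2 and Npr1).

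The rest of the pathway was counted from lists chosen by function. Among the cGMP effectors and exporters, 4 of 13 genes were tested, and Prkg2, the membrane-bound cGMP-dependent protein kinase, fell over time in both AMH doses. Its signal at AMH 200 ng/mL was 389, 297 and 733 at 12 h and 58.3, 115 and 80.7 at 24 h, a difference of -2.22 (log2, SE 0.37, limma adjusted p = 0.0234). At AMH 50 ng/mL it was 383 and 516 at 12 h and 179, 133 and 79.2 at 24 h, a difference of -1.71 (SE 0.29, adjusted p = 0.00715, or 0.0292 with the pool as a random block). The times did not overlap in either dose. In vehicle it was 204, 360 and 414 at 12 h and 114, 272 and 115 at 24 h, with overlap and a difference of -0.95 (SE 0.37). Without the 12 h array of pool 3 the difference at 200 ng/mL was -1.86 (adjusted p = 0.00499), and without a 24 h array the adjusted p lay between 0.0700 and 0.133. The exporters Abcc4 and Abcc5 and the kinase substrate gene Vasp did not pass in either dose.

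Of the other cyclic nucleotide phosphodiesterases, 14 of 23 were tested and 0 passed in either AMH dose over time, with medians of -0.25 (6 of 14 above 0) at 200 ng/mL and -0.02 (7 of 14) at 50 ng/mL. The median over all genes was 0.07 at 200 ng/mL (55.0% above 0) and -0.02 at 50 ng/mL (48.2%). The smallest unadjusted p at 200 ng/mL among them was that of Pde10a (-1.27, SE 0.35, limma adjusted p = 0.0781), which degrades both cyclic nucleotides. Without the 12 h array of pool 3, 1 of the 14 fell at this dose. The count was also 1 with quantile normalization, with median centring and with the pool as a random block. Among the other guanylyl cyclases and nitric oxide synthases, 4 of 12 were tested, and Gucy2g, an orphan receptor guanylyl cyclase, fell at 50 ng/mL (-1.43, SE 0.24, limma adjusted p = 0.00769), while 0 of 4 passed at 200 ng/mL. With the pool as a random block the Gucy2g call was lost (-1.09, SE 0.69, limma adjusted p = 0.485 with an estimated correlation). The subunits of the nitric oxide receptor, Gucy1a1 and Gucy1b1, differed by 0.61 (SE 0.39) and 0.13 (SE 0.34) at 200 ng/mL and did not pass. Without the 12 h array of pool 3, 1 of the 4 tested cyclases and synthases fell at 200 ng/mL.

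Known regulators of Nppc and Npr2 held the largest shifts of these lists. Of 12 genes 8 were tested. At 200 ng/mL Fshr, the FSH receptor gene, rose by 2.24 (log2, SE 0.43, limma adjusted p = 0.0320) and Esr2, estrogen receptor beta, by 1.98 (SE 0.39, adjusted p = 0.0345), while the EGF receptor ligand genes Btc (-2.79, SE 0.30, adjusted p = 0.0127) and Ereg (-2.22, SE 0.37, adjusted p = 0.0245) fell. At 50 ng/mL Fshr (1.72, SE 0.25, adjusted p = 0.00340) and Egfr (0.76, SE 0.19, adjusted p = 0.0381) rose, and Btc (-2.36, SE 0.26, adjusted p = 0.00108) and Ereg (-0.97, SE 0.17, adjusted p = 0.00903) fell. With the pool as a random block the calls of Egfr (limma adjusted p = 0.151 with an estimated correlation) and Ereg (adjusted p = 0.118) at this dose were lost. In vehicle 1 of the 8 rose (Fshr, 2.43, SE 0.45) and 2 fell (Btc, -2.17, SE 0.33, and Ereg, -1.64, SE 0.27). Of all 11213 genes tested, 124 rose and 60 fell there. Fshr, Btc and Ereg were thus called over time in vehicle too, while Esr2 and Egfr were not. Fshr is also a granulosa marker here, and its changes stood beside the higher granulosa sums given above.

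In the meiotic arrest list, 11 of 13 genes were tested. Prkar2b, a regulatory subunit of the cyclic AMP-dependent kinase, rose at 200 ng/mL (1.46, SE 0.32, limma adjusted p = 0.0453). At 50 ng/mL the adenylyl cyclase gene Adcy9 rose (0.98, SE 0.25, adjusted p = 0.0409) and Cdk1, the kinase of meiotic and mitotic entry, fell (-1.14, SE 0.20, adjusted p = 0.00825). With the pool as a random block the Adcy9 call was lost (limma adjusted p = 0.118 with an estimated correlation). Of the 10 tested oocyte markers 1 was higher at 24 h at this dose and 0 passed, with a median of -1.17 and sums of 2358 to 6487 at 12 h and 994 to 4119 at 24 h, and their part in these differences was not tested. Gpr3, the receptor that keeps cyclic AMP high in the oocyte, differed by -0.50 (SE 0.43) at 200 ng/mL and did not pass at either dose. Of the follicle's gap junction genes 3 of 4 were tested and 0 passed, with Gja1, which joins granulosa cells, at 0.50 (SE 0.17, adjusted p = 0.122) and Gja4, which joins oocyte and granulosa cells, at 0.36 (SE 0.87) for 200 ng/mL. At this dose 1 of the 3 rose with quantile normalization, and 1 rose without the 12 h array of pool 3. In guanine nucleotide supply 3 of 7 were tested and 0 passed. In peptide processing 1 of 6, the protease gene Furin, was tested, at -0.61 (SE 0.17, adjusted p = 0.0781) for 200 ng/mL. Furin was called lower at this dose without the 12 h array of pool 2 or of pool 3, and with the pool as a random block. Over all 48 tested genes, 3 rose and 3 fell at 200 ng/mL and 3 rose and 5 fell at 50 ng/mL, against 323 and 176 at 200 ng/mL and 604 and 369 at 50 ng/mL of all 11213 genes tested. Without 1 of the 24 h arrays of pools 1, 2 and 3 in turn, the calls of Prkar2b, Fshr, Esr2, Ereg, Btc and Prkg2 at 200 ng/mL were all lost, with adjusted p from 0.0601 to 0.192, and without the 12 h array of pool 1 Btc alone of them was called (adjusted p = 0.0462). At 50 ng/mL, Prkg2, Gucy2g, Cdk1, Fshr, Btc and Ereg were called without each of the 5 arrays in turn, while Adcy9 was called in 2 of 5 such fits and Egfr in 1. With the pool as a random block Prkg2, Cdk1, Fshr and Btc were called at 50 ng/mL (limma adjusted p from 0.00353 to 0.0432 with an estimated correlation), and the calls of Gucy2g, Ereg, Adcy9 and Egfr were lost. In that fit all 6 genes called at 200 ng/mL were called again, with adjusted p from 0.000179 to 0.00558.

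**Figure D5:**
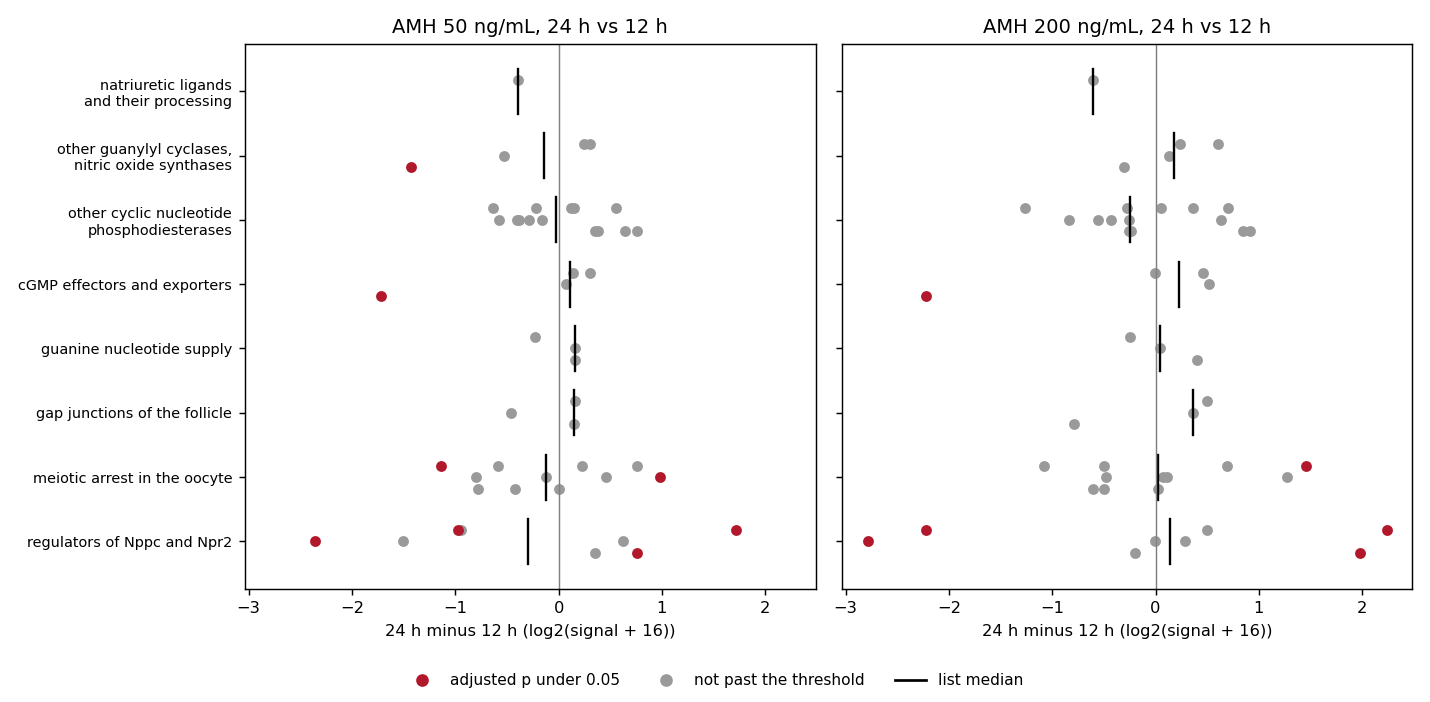
Difference between 24 h and 12 h (log2(signal + 16)) for the tested genes of 8 pathway lists at AMH 50 ng/mL (left) and AMH 200 ng/mL (right); red points passed an adjusted p of 0.05 by limma and bars are list medians. The red points at the far left of the bottom row are Btc, at -2.36 and -2.79, and none lies in the other phosphodiesterase list.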

How the data were processed

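The authors deposited 1 signal intensity per probe set and array from Affymetrix mouse arrays, computed with MAS5, per the submitters' processing notes. The version is not given in the sources used here. The intensities are linear, with a 2% trimmed mean of 150 on every array, and RNA had been amplified from 5 ng, per the labels. Here 16 was added before log2 with no further normalization, 64 control probe sets were set aside, and a probe set was tested if its average over 17 arrays exceeded the 50th percentile. Fold changes are on the log2(signal + 16) scale, which understates the change of low genes.

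Symbols came from the platform annotation (1 symbol for 34945 probe sets, several for 932, none for 9160). A gene is led by its probe set with the highest mean. Labels of the 12 h AMH samples conflict: descriptions give 24 h, titles and sources give 12 h, and 12 h was used. Array number limits the precision.

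The linear models came from limma 3.58.1, run under R 4.3.3 (functions lmFit and eBayes, the latter with trend; Benjamini-Hochberg adjustment, threshold 0.05, two-sided). Dose comparisons used 17 arrays with the pool as a block, since the labels say that each pool was divided over the doses (same-pool deviations correlated at 0.123 to 0.495). Time comparisons used the arrays of 1 dose, without a block. Same-numbered vehicle arrays of 12 and 24 h correlated at 0.317, 0.261 and 0.206, a pairing that comes from these values and not from the labels, so the blocked count is given there.

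The members and all gene lists were chosen with earlier results of these data known. Lists are described by counts, with up to 4 genes of smallest unadjusted p named per list and comparison, besides a few named for their role. Marker lists served the sums. The fits were tested on simulated data. Alternatives changed the added value, filter, normalization, block, trend and arrays; one fitted 17 arrays with the pool as a random block (duplicateCorrelation, estimated correlation 0.281). Figures were drawn with matplotlib 3.10.9. Some genes may not be reported here.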

Additional observations from a re-analysis of the deposited data

Results flagged for a closer look

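The array set apart, AMH 50 ng/mL at 12 h in pool 3, carried signals above all 6 vehicle arrays for 5 member probe sets. Nppc read 1165, against at most 187 in vehicle. The 3 Npr3 probe sets read 39.0, 72.0 and 59.2, against at most 34.7, 11.6 and 13.9, and the dimmest Pde3a probe set read 11.4, against at most 3.65. On the same array the leading Pde5a probe set read 2.41 and Npr1 read 4.09, below all vehicle arrays. These values stayed out of the comparisons.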

How the results depend on the processing

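The dose comparisons and the difference of the AMH 200 ng/mL effect between times gave 0 calls in 59 of 62 alternatives; leaving out 1 pool gave 0 to 4 calls for 50 ng/mL and 0 to 242 for 200 ng/mL at 12 h (242 without pool 2), and the 9 arrays of 24 h alone, a setting added after seeing the data, gave 1 for 50 ng/mL. Npr1 minus vehicle, a contrast used to choose the genes, lay between -1.48 and -0.18 over the 11 or 12 alternatives of each dose comparison. The vehicle time count of 291 became 154 with 1 added before log2, 60 with no filter, 128 with the 75th percentile filter, 642 with the replicate block and 619 with the pool as a random block over 17 arrays (0 to 531 without 1 array, 0 without the 24 h array of pool 2 or 3). The AMH 200 ng/mL count of 884 became 540, 401 and 1493 with 1 added, no filter and quantile normalization and 4221 with the random block (0 to 2989 without 1 array, 0 without the 24 h array of pool 1 or 3). The AMH 50 ng/mL count of 1711 became 765 with no filter, 987 with the 75th percentile filter, 640 with the random block and 0 with the array set apart (866 to 1706 without 1 array). The replicate block, whose numbers do not pair the AMH cultures (r from -0.0439 to 0.124), gave 799 and 1535 calls at 200 and 50 ng/mL, and at 50 ng/mL it brought the other 2 Pde5a probe sets under the threshold (adjusted p = 0.0100 and 0.0178). Of the values of tested members, 9 changed sign: Pde3a at 200 ng/mL with 1 added (0.21) and without 1 array (-0.93 to 0.45 over the 6 such fits), Pde3a at 50 ng/mL with the replicate block (0.028), the random block (0.20) and without 1 array (-0.83 to 0.66 over the 5 such fits), and Nppc at 50 ng/mL with the array set apart (-0.042). Median centring moved the median of all probe sets in the 200 ng/mL time comparison from 0.10 to -0.06 and left Npr2 at 1.68 and Nppc at 0.83. The causes were not tested. Low signal limits Npr3 and the 2 dim Pde3a probe sets.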
